A study of Mus musculus with 4 samples.

Results

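Igf2bp1, Igf2bp2, Igf2bp3, Lin28b, Hmga2, Arid3a, Plagl1 and Cdkn1c are genes of fetal cells whose RNA is usually low after birth. These 8 genes were taken by name from the 32285 features of the deposited matrices, and all 8 were present. They were read in 4 single-cell RNA sequencing libraries (10x Genomics 5′ gene expression) of sorted CD4+ Foxp3GFP+ cells, 1 library each from the liver of 7-week mice, the liver of neonatal (12-day) mice, the spleen of 7-week mice and the spleen of neonatal mice. Foxp3 is the transcription factor that defines regulatory T (Treg) cells, and it carries a GFP tag in these C57BL/6 animals. The 12-day mice are described as Foxp3GFP-Cre with a Rosa26 loxP-Stop-loxP YFP reporter, in which Cre made in Foxp3-expressing cells switches on YFP. That genotype is not given for the 7-week mice, whose stage label reads "aged". The number of mice behind each library is unstated, and age, genotype, the mix of sexes and library cannot be told apart.

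Igf2bp1, Igf2bp2 and Igf2bp3 encode RNA-binding proteins that bind messenger RNAs, among them that of the growth factor Igf2, and affect their stability and translation. Lin28b encodes an RNA-binding protein that blocks the maturation of let-7, a family of microRNAs that is abundant in adult cells and represses fetal genes. Hmga2, a chromatin protein, and Arid3a, a DNA-binding factor, are known in mouse blood progenitors as genes that let-7 holds down and that rise where Lin28b is made. Plagl1 is an imprinted zinc-finger transcription factor, expressed from the paternal copy, that acts on other imprinted genes. Cdkn1c, expressed from the maternal copy, encodes p57, an inhibitor of cyclin-dependent kinases that restrains the cell cycle and fetal growth.

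A feature that the choice of genes did not read from these libraries is the let-7 target site. Mature let-7 microRNAs act through their seed, bases 2 to 8, and the RefSeq sequences (GRCm38.p6) of let-7a, let-7g and miR-98 are shown because their seeds, in capitals, are the same 7 bases while the rest differs.
mmu-let-7a-5p: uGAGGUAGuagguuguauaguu
mmu-let-7g-5p: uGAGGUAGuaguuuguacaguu
mmu-miR-98-5p: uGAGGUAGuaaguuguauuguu
The match to this seed in a target is CTACCTC, searched on the sense strand of the longest annotated 3′ UTR of each gene. It was present in 6 of the 8 genes. Igf2bp1, Lin28b and Hmga2 had 4 matches each, Arid3a had 2, and Igf2bp2 and Igf2bp3 had 1 each, and in each of the 6 genes at least 1 match was followed by A. Plagl1 (UTR of 2590 bases) and Cdkn1c (688 bases) had none, which says only that these letters are not in those UTRs. Among all 20993 genes with an annotated 3′ UTR, 1894 (9.02%) had a match and 642 (3.06%) had one followed by A. Several of the 6 genes are widely known as let-7 targets, so their matches are not independent of why such genes are listed together. A match is a description of sequence, and the microRNAs themselves were not measured in these libraries.

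The first match followed by A of each of the 6 genes is shown with the 22 bases before it (GRCm38, strand of the gene, match in capitals), since these are the letters that pair with the seeds above.
Igf2bp1, chr11:95961778-95961807, minus strand: aggcagtgctgtgcgaagtaaaCTACCTCa
Igf2bp2, chr16:22059473-22059502, minus strand: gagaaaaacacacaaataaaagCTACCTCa
Igf2bp3, chr6:49086787-49086816, minus strand: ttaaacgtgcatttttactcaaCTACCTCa
Lin28b, chr10:45381022-45381051, minus strand: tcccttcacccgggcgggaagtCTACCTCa
Hmga2, chr10:120364224-120364253, minus strand: agggggcgccgacattcaatttCTACCTCa
Arid3a, chr10:79953888-79953917, plus strand: cacatgcaaggcaagtttctttCTACCTCa
Of these 6 genes, Igf2bp3 and Arid3a were above 5 counts per 1e+06 UMIs (CPM) in at least 1 library, and the other 4 were at or near 0 in all 4 libraries, as described next.

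After filtering, the libraries held 2337 cells (6994105 UMIs) in 7-week liver, 5342 cells (28900181 UMIs) in neonatal liver, 5677 cells (18740387 UMIs) in 7-week spleen and 5668 cells (30057092 UMIs) in neonatal spleen, with median depths from 2635 to 4524 UMIs per cell. UMIs of a gene were summed over the cells of a library and given as CPM. All intervals are exact 95% intervals for counting error only, and with 1 library per group there is no replicate check and no test. Foxp3 lay between 409 and 467 CPM in the 4 libraries, and each of the 5 T cell and 5 Treg markers was above 5 CPM in each of them. RNA of female cells made up a different part at each age, with Xist at 127, 302, 150 and 302 CPM in 7-week liver, neonatal liver, 7-week spleen and neonatal spleen. None of the 8 genes lies on a sex chromosome, but whether their levels differ with sex was not tested. The mix of sexes therefore cannot be told apart from age. Between 2.29% and 2.90% of the barcodes of a library also occurred in another library.

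The largest age difference among the 8 genes was that of Igf2bp3 (ENSMUSG00000029814, chromosome 6, 49085223 to 49214957, minus strand, GRCm38). It stood at 3.15 CPM [1.97 to 4.76] in 7-week liver, against 46.1 CPM [43.7 to 48.7] in neonatal liver. In the spleen it stood at 4.70 CPM [3.77 to 5.79] at 7 weeks, against 59.1 CPM [56.4 to 61.9] in neonatal cells. It was thus 14.7-fold lower in 7-week liver than in neonatal liver [9.64 to 23.5] and 12.6-fold lower in 7-week spleen than in neonatal spleen [10.2 to 15.8]. Both 7-week libraries lay far below both neonatal libraries, and no interval of one age overlapped one of the other. Among the features with 5 CPM or more in the higher of both libraries, the neonatal over 7-week ratio of Igf2bp3 ranked 13 of 9319 in liver and 12 of 9204 in spleen from the highest.

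The counts behind these levels were 22 Igf2bp3 UMIs in 20 cells of 7-week liver, against 1333 UMIs in 1074 cells of neonatal liver, and 88 UMIs in 80 cells of 7-week spleen, against 1776 UMIs in 1372 cells of neonatal spleen. A UMI was therefore found in 0.856% of 7-week liver cells and 20.1% of neonatal liver cells, and in 1.41% of 7-week spleen cells and 24.2% of neonatal spleen cells. When each cell was thinned to 1000 UMIs, to remove the difference in depth, the shares were 0.229% in 7-week liver, 4.58% in neonatal liver, 0.340% in 7-week spleen and 6.09% in neonatal spleen. The RNA was spread thinly over many cells, with 1.10 to 1.29 UMIs per cell that had any and at most 6 in a cell. Fewer cells that make the RNA and less RNA per cell cannot be told apart at this depth.

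**Figure D1:**
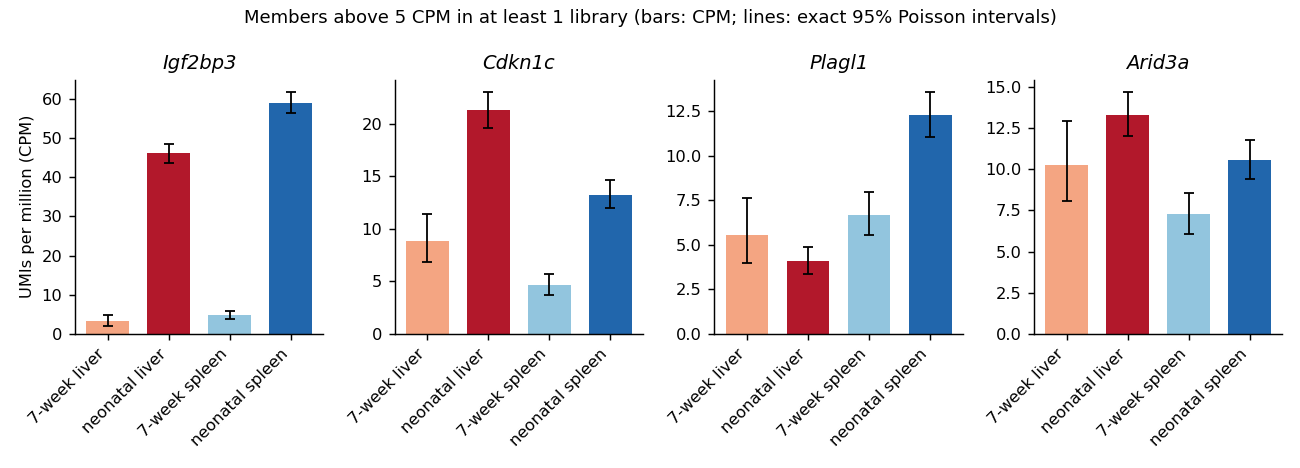
CPM of the 4 genes that reached 5 CPM in at least 1 library (y axis, linear from 0, its own scale in each panel) in the 7-week liver, neonatal liver, 7-week spleen and neonatal spleen libraries, with exact 95% Poisson intervals as lines. Igf2bp3 stood at 3.15 and 4.70 CPM in the 7-week libraries and at 46.1 and 59.1 CPM in the neonatal ones, while Plagl1 stands out in neonatal spleen at 12.3 CPM.

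Igf2bp3 overlaps Malsu1, a gene on the opposite strand, and no source used here states whether the counting used strand. Malsu1 stood at 48.0 CPM in 7-week liver and 56.3 CPM in neonatal liver, and at 45.2 CPM in 7-week spleen and 51.0 CPM in neonatal spleen, the higher value in neonatal cells in both tissues, as for Igf2bp3, but by far less. The part of reads shared by the pair was not tested. Of the 7-week cells with an Igf2bp3 UMI, 0 of 20 in liver and 1 of 80 in spleen had a barcode that a neonatal library also holds. Without cells that share a barcode with a neonatal library, Igf2bp3 stood at 3.22 CPM in 7-week liver and 4.76 CPM in 7-week spleen.

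The other genes of the same families were nearly silent. Igf2bp1 (chromosome 11, 95957163 to 96005940) had 0 UMIs in 7-week liver, neonatal liver and 7-week spleen and 2 in neonatal spleen. Igf2bp2 (chromosome 16, 22059009 to 22163299) had 0 UMIs in 7-week liver, 4 in neonatal liver, 6 in 7-week spleen and 14 in neonatal spleen, the last being 0.466 CPM [0.255 to 0.781]. Igf2bp3 was thus the member of its family with counts above 14 UMIs in any library.

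Lin28b (chromosome 10, 45376620 to 45486395) had 1 UMI in each neonatal library and 0 in both 7-week libraries. Its relative Lin28a had 0 UMIs in all 4. Hmga2 (chromosome 10, 120361275 to 120476469) had 0 UMIs in 7-week liver, 3 in neonatal liver, 1 in 7-week spleen and 2 in neonatal spleen. The limit that a count of 0 allows, 3 UMIs per library, was 0.429 CPM in 7-week liver, 0.104 CPM in neonatal liver, 0.160 CPM in 7-week spleen and 0.0998 CPM in neonatal spleen. At this depth an age difference in Igf2bp1, Igf2bp2, Lin28b or Hmga2 was not detectable. An antisense transcript within Hmga2, 1700006J14Rik, was counted more often than the gene itself, with 0 UMIs in 7-week liver, 32 in neonatal liver, 1 in 7-week spleen and 25 in neonatal spleen. Without strand, reads of such a pair cannot be told apart.

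Arid3a (ENSMUSG00000019564, chromosome 10, 79927043 to 79955018, plus strand) was present at both ages. It stood at 10.3 CPM [8.05 to 13] in 7-week liver, against 13.3 CPM [12.0 to 14.7] in neonatal liver, and at 7.26 CPM [6.09 to 8.58] in 7-week spleen, against 10.5 CPM [9.42 to 11.8] in neonatal spleen. It was 1.29-fold lower in 7-week liver [1.0 to 1.69] and 1.45-fold lower in 7-week spleen [1.19 to 1.79] than in the neonatal library of the same tissue. The neonatal liver interval lay above that of neonatal spleen, the next in order, but overlapped that of 7-week liver. That of neonatal spleen overlapped that of 7-week liver, which overlapped that of 7-week spleen. Neither age ratio reached 2.

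Cdkn1c (ENSMUSG00000037664, chromosome 7, 143458339 to 143461050, minus strand) was lower at 7 weeks in both tissues. It stood at 8.86 CPM [6.80 to 11.4] in 7-week liver, against 21.3 CPM [19.6 to 23.0] in neonatal liver, and at 4.64 CPM [3.72 to 5.73] in 7-week spleen, against 13.2 CPM [12.0 to 14.6] in neonatal spleen. The gene was 2.40-fold lower in 7-week than in neonatal liver [1.85 to 3.17] and 2.85-fold lower in 7-week than in neonatal spleen [2.26 to 3.64]. No 2 of the 4 libraries had overlapping CPM intervals, and in both tissues the neonatal library was the higher one. These intervals treat UMIs as independent, though Cdkn1c UMIs were concentrated in few cells. In cells thinned to equal depth, the share with a Cdkn1c UMI was 0.687% [0.385 to 1.13] in 7-week liver. That interval overlapped those of neonatal spleen, 0.997% [0.750 to 1.30], and 7-week spleen, 0.394% [0.247 to 0.595]. The interval of neonatal liver, 1.69% [1.35 to 2.10], overlapped none, and within each tissue the ages stayed apart. With cells of cycling clusters left out, the neonatal over 7-week ratio of CPM in liver was 1.91, below 2.

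Cdkn1c RNA was concentrated in few cells. A cell with any Cdkn1c UMI held on average 1.51 in 7-week liver, 2.04 in neonatal liver, 1.28 in 7-week spleen and 1.71 in neonatal spleen, and the highest single cell held 9, 41, 10 and 18 UMIs in these libraries. The 10 highest cells carried 50% of the UMIs in 7-week liver, against 23.7% in neonatal liver, and 33.3% in 7-week spleen, against 20.9% in neonatal spleen. Without those 10 cells of each library the neonatal over 7-week ratio in liver was 3.65. This removes 10 of 41 positive cells in 7-week liver and 10 of 301 in neonatal liver. The rise of the ratio was thus fixed in advance and is no check of the age difference. For Igf2bp3 its own 10 highest cells carried 54.5% of the UMIs in 7-week liver, where there were 20 such cells in all, and 2.78% in neonatal liver.

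Plagl1 (ENSMUSG00000019817, chromosome 10, 13060504 to 13131694, plus strand) was lower at 7 weeks in the spleen and not in the liver, and neither age ratio reached 2. It stood at 5.58 CPM [3.97 to 7.62] in 7-week liver, against 4.08 CPM [3.38 to 4.89] in neonatal liver, intervals that overlap. In the spleen it stood at 6.67 CPM [5.55 to 7.95] at 7 weeks, against 12.3 CPM [11.1 to 13.6] in neonatal cells, which was 1.84-fold lower at 7 weeks [1.5 to 2.27]. The liver ratio, neonatal over 7-week, was 0.732 [0.506 to 1.08].

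Of the 4 genes with 5 CPM or more in the higher of both libraries, 2 (Igf2bp3 and Cdkn1c) were at least 2-fold lower in 7-week than in neonatal liver, where 6.84% of the 9319 features tested were. The same 2 of 4 were at least 2-fold lower in 7-week than in neonatal spleen, where 4.01% of 9204 features were. None of the 4 was at least 2-fold higher at 7 weeks, against 6.1% of the features in liver and 3.74% in spleen. The other 4 genes were below 5 CPM in all libraries and entered no count.

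Which cells held the genes was read from 15 clusters of the pooled cells, made without the 8 genes and named by their leading genes. Igf2bp3 was lower at 7 weeks in each cluster that could be compared. In the 6 clusters with at least 50 cells in both liver libraries it ranged from 2.06 to 7.61 CPM at 7 weeks and from 38.7 to 81.5 CPM in neonatal cells. In the 10 such clusters of the spleen it ranged from 0 to 10.7 CPM at 7 weeks and from 44.9 to 131 CPM in neonatal cells. The interval of the neonatal over 7-week ratio lay above 1 in all 6 and all 10.

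The age difference was present in resting and in effector cells. In the clusters named resting Treg-like, from Ccr7, Klf2 and other markers, Igf2bp3 stood at 4.68 CPM in 7-week liver, against 48.2 CPM in neonatal liver (10.3-fold, [5.22 to 23.2]), and at 4.10 CPM in 7-week spleen, against 48.6 CPM in neonatal spleen (11.8-fold, [7.53 to 19.2]). The class leaves out the cluster led by Grifin, described below, which got no name although all 9 resting Treg markers were raised in it. Different clusters make up this class at each age. The Ly6c1 cluster held 732 cells of it in 7-week liver and 62 in neonatal liver, and 1989 in 7-week spleen and 66 in neonatal spleen, while the Dapl1 cluster held 22 in 7-week liver and 508 in neonatal liver, and 64 in 7-week spleen and 340 in neonatal spleen. Within the Ly6c1 cluster alone Igf2bp3 was 16.9-fold lower in 7-week liver [6.94 to 43.9] and 16.6-fold lower in 7-week spleen [8.44 to 31.7] than in the neonatal library. In the clusters named effector Treg-like, from Tigit, Lag3 and other markers, it stood at 4.77 CPM in 7-week spleen, against 51.2 CPM in neonatal spleen (10.7-fold, [7.06 to 17]). In 7-week liver these effector clusters held 1 Igf2bp3 UMI, against 563 in neonatal liver, a ratio of 39.7 [7.10 to 1572]. This class too was made of different clusters at each age, with the Ces2c cluster holding 1343 cells of it in 7-week spleen and 230 in neonatal spleen, and the Ccl5 Gzmb cluster 112 in 7-week liver and 1683 in neonatal liver. Within the Ces2c cluster Igf2bp3 was 11.8-fold lower in 7-week spleen than in neonatal spleen [7.19 to 20.1], and within the Ccl5 Gzmb cluster 16.1-fold lower in 7-week liver than in neonatal liver [2.88 to 639], from 1 UMI at 7 weeks. Clusters with raised G2/M markers stood at 6.62 CPM in 7-week spleen, against 51.9 CPM in neonatal spleen (7.83-fold, [3.01 to 29.0]).

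**Figure D2:**
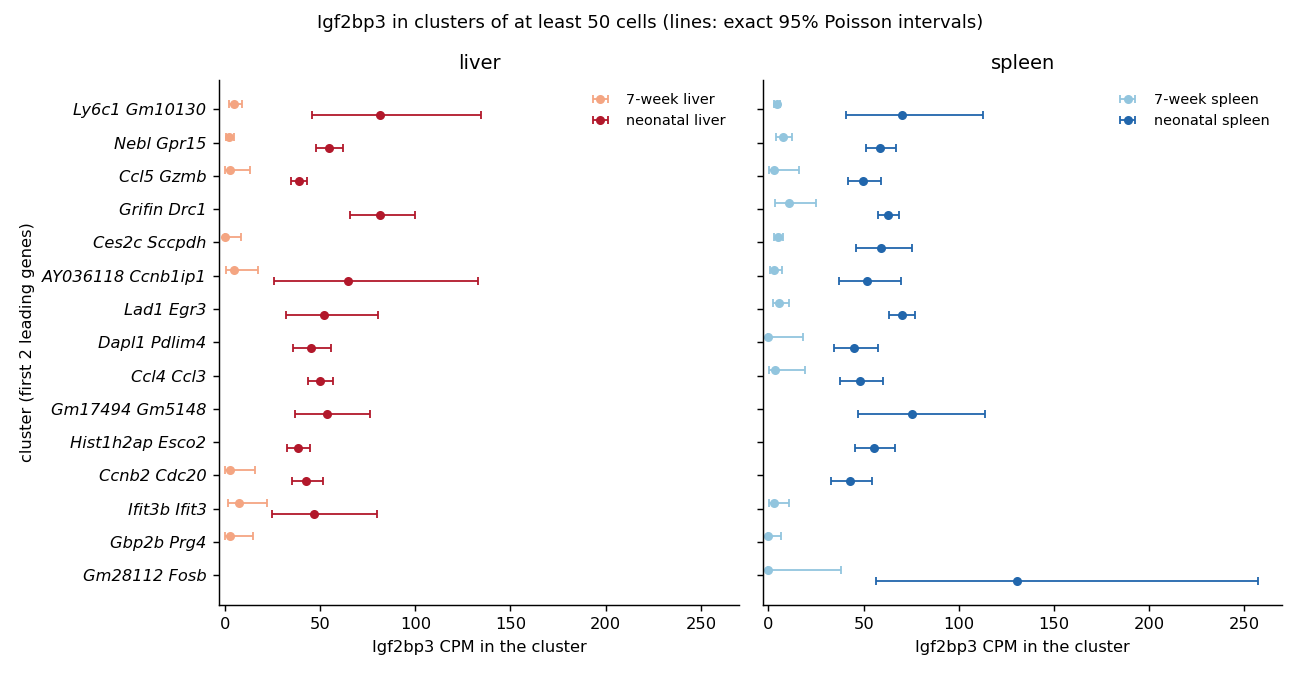
Igf2bp3 CPM (x axis, linear) in each cluster with at least 50 cells (y axis, first 2 leading genes), with the 7-week library above the neonatal library of the same tissue and exact 95% Poisson intervals as lines. Each neonatal point of a liver cluster lies at 38.3 CPM or above, and each 7-week point at 10.7 CPM or below.

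Within a neonatal library Igf2bp3 was present in each cluster of at least 50 cells. The highest of 12 neonatal liver clusters was 2.13 times the lowest, and the highest of 13 neonatal spleen clusters was 3.06 times the lowest. That highest spleen level, 131 CPM, was in the Gm28112 Fosb cluster, which is shallow, at a median of 966 UMIs per cell. The lowest liver value, 38.3 CPM, was in a cluster led by histone genes and Esco2, and the effector cluster led by Ccl5 and Gzmb, the gene of granzyme B, was near it at 38.7 CPM. The cluster led by Grifin, Drc1 and Gata1 had all 9 resting Treg markers raised but lies outside the named resting class. In neonatal liver it stood at 81.3 CPM, against 44.7 CPM in the other cells (1.82-fold, [1.45 to 2.25]). In neonatal spleen the same cluster, 32.4% of the cells, stood at 63.0 CPM. At Leiden resolution 0.5 Grifin and Dapl1 led a joint cluster that was named resting Treg-like. The cluster led by Lad1, Egr3 and Egr2, of which Egr2 and Egr3 are induced by T cell receptor signals, stood at 70.0 CPM in neonatal spleen, against 56.4 CPM in the other cells (1.24-fold, [1.11 to 1.39]).

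No cluster with at least 50 cells at 7 weeks had a neonatal level of Igf2bp3. There were 8 such clusters in 7-week liver and 12 in 7-week spleen, and the smaller clusters hold too few cells to tell. Of the 22 UMIs of 7-week liver, 40.9% lay in the resting-like cluster led by Ly6c1, which made up 31.3% of the cells. Of the 88 UMIs of 7-week spleen, 29.5% lay in that cluster (35% of the cells) and 25% in the effector-like cluster led by Ces2c and Sccpdh (23.7% of the cells). The highest 7-week value among clusters of at least 50 cells, 10.7 CPM [3.49 to 25], was in the Grifin cluster of the spleen. It rested on 5 UMIs in 135 cells.

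Cells of the removed clusters were looked at for RNA that cells take up from outside, but not all of them were of another lineage. None of the 40 such cells of 7-week liver and 57 of 7-week spleen had an Igf2bp3 UMI, which allows a share of up to 7.50% and 5.26%. These limits lie above the 0.856% and 1.41% of the main cells, so the counts of 0 cannot tell them apart. Of the 40 liver cells, 38 were in the cluster led by Tcrg-V4 and Xcl1, with Cd3e at 1527 CPM and Foxp3 at 30.1 CPM. These carry the RNA of T cells and are no measure of other lineages. In neonatal spleen, thinned to 1000 UMIs, 4.38% of 137 such cells had one, against 6.09% of the main cells, and in neonatal liver 2.90% of 69, against 4.58%. Those cells carried Treg RNA as well. The macrophage-like cells of neonatal spleen held a Foxp3 UMI in 62.9% and Igf2bp3 at 77.4 CPM [54.8 to 106], so a share free of Treg RNA could not be had from them. In 21 neonatal liver cells led by Tcrg-V4 and Xcl1, in which Foxp3 was at 29.1 CPM, Igf2bp3 was at 48.4 CPM [15.7 to 113] from 5 UMIs.

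Cdkn1c was more unevenly spread over the clusters than Igf2bp3. Its highest level among clusters of at least 50 cells in both neonatal libraries was in the cluster led by Nebl, Gpr15 (a receptor for homing to the gut), Il1rl1 (the IL-33 receptor) and Itgb1. In neonatal liver this cluster stood at 53.1 CPM, against 15.7 CPM in the other cells (3.39-fold, [2.87 to 4.0]). In neonatal spleen it stood at 31.3 CPM, against 10.7 CPM (2.94-fold, [2.35 to 3.66]). The 7-week libraries, which did not enter the choice of the cluster, gave 16.5 CPM, against 4.81 CPM in the other cells of 7-week liver (3.43-fold, [1.99 to 6.07]), and 11.6 CPM, against 3.86 CPM in 7-week spleen (3.01-fold, [1.77 to 4.95]). In 7-week spleen the Ifit3b Ifit3 cluster had a higher level than the Gpr15 cluster, at 13.7 CPM [6.27 to 26.0] from 9 UMIs.

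At 7 weeks the Gpr15 cluster held 64.5% of the Cdkn1c UMIs of the liver with 29.2% of its cells, and 25.3% of those of the spleen with 8.37% of its cells. Age still divided the levels inside it, at 16.5 CPM in 7-week liver, against 53.1 CPM in neonatal liver (3.22-fold, [2.29 to 4.62]), and at 11.6 CPM in 7-week spleen, against 31.3 CPM in neonatal spleen (2.70-fold, [1.70 to 4.46]). Cdkn1c was the lower one at 7 weeks in 6 of 6 liver clusters and 10 of 10 spleen clusters, and the interval excluded 1 in 3 of each. In neonatal liver it was also high in the clusters led by histone genes and Esco2 (35.9 CPM) and by Ccnb2 and Cdc20 (31.5 CPM), which carry raised G2/M markers. Other neonatal clusters were low, such as the one led by Ccl4, Ccl3 and Il10, at 3.81 CPM in liver and 3.99 CPM in spleen.

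Plagl1 was held by other clusters. It was lowest in the effector cluster led by Ccl5 and Gzmb, at 0.814 CPM, against 5.47 CPM in the other cells of neonatal liver (6.72-fold lower, [3.15 to 17.1]), and at 0.722 CPM, against 13.5 CPM in those of neonatal spleen (18.6-fold lower, [5.12 to 154], from 2 UMIs). At 7 weeks that cluster held 0 Plagl1 UMIs in liver and 1 in spleen. Plagl1 was high in the cluster led by Lad1, Egr3 and Egr2, at 25.6 CPM, against 9.0 CPM in the other cells of neonatal spleen (2.84-fold, [2.29 to 3.51]). The same cluster stood at 14.9 CPM, against 5.97 CPM in the other cells of 7-week spleen (2.49-fold, [1.5 to 3.97]). It held 41.2% of the Plagl1 UMIs of neonatal spleen with 14.8% of its cells. In 7-week spleen the Gm28112 Fosb cluster, shallow at a median of 966 UMIs per cell, had a higher level than the Lad1 cluster, at 31.0 CPM.

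**Figure D3:**
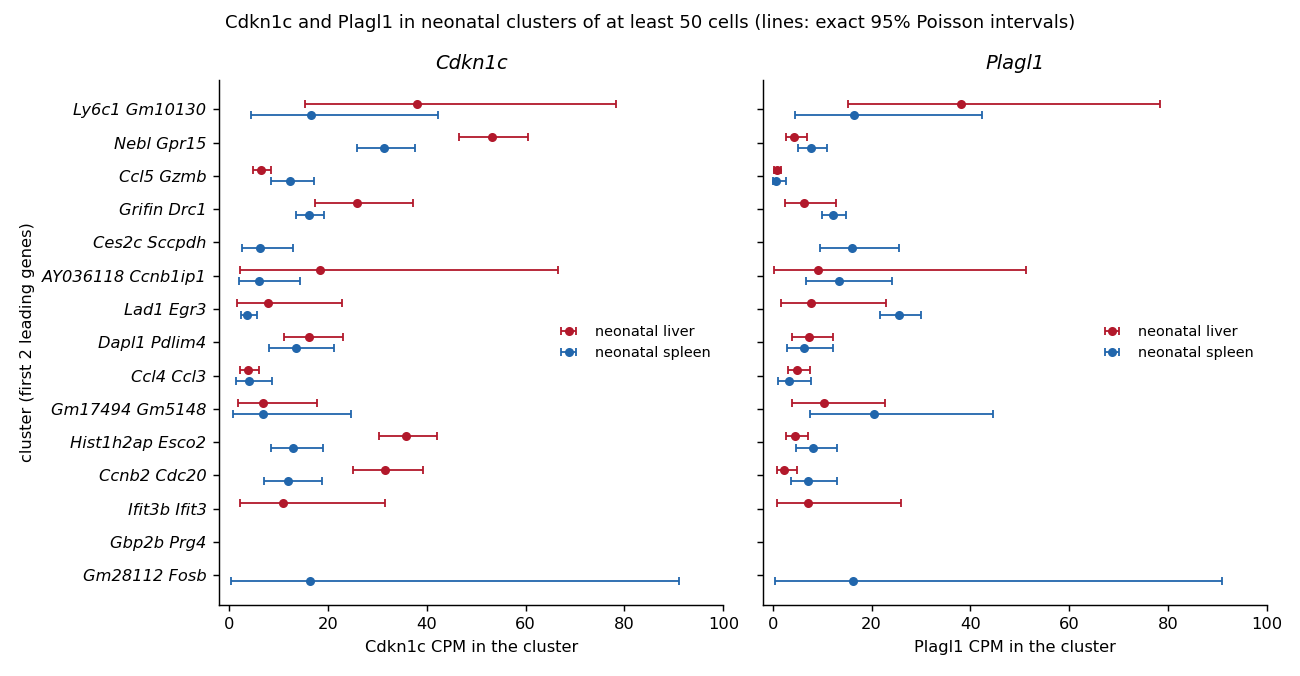
CPM of Cdkn1c (left) and Plagl1 (right) in each neonatal cluster with at least 50 cells (y axis, first 2 leading genes), with neonatal liver above neonatal spleen and exact 95% Poisson intervals as lines. Cdkn1c is highest in the Nebl Gpr15 cluster, at 53.1 and 31.3 CPM, and Plagl1 is lowest in the Ccl5 Gzmb cluster, at 0.814 and 0.722 CPM.

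The clusters took different shares of the cells at each age, and their part in the Plagl1 level of the liver was not tested. The Ccl5 Gzmb cluster, where Plagl1 was lowest, made up 4.79% of the 7-week liver cells and 31.5% of the neonatal liver cells. In the resting-like cluster led by Ly6c1, Plagl1 stood at 6.42 CPM in 7-week liver, against 38.0 CPM in neonatal liver (5.92-fold, [1.98 to 16.3], from 7 UMIs in 62 neonatal cells). With the neonatal liver clusters weighted to the UMI shares they have in 7-week liver, the neonatal over 7-week ratio of Plagl1 was 2.89, where it was 0.732 without weights. In spleen the weighted ratio of Plagl1 was 2.13, where it was 1.84 without weights. The weighted liver value leans on the 62 neonatal cells of the Ly6c1 cluster. In the Gpr15 cluster Plagl1 stood at 5.37 CPM in 7-week liver and 4.39 CPM in neonatal liver, with an interval of the ratio that holds 1. The weighted ratio of Cdkn1c in liver was 3.95, where it was 2.40 without weights.

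Arid3a differed between cells in a modest way. It stood at 17.7 CPM in the Ccl5 Gzmb cluster, against 11.5 CPM in the other cells of neonatal liver (1.54-fold, [1.25 to 1.90]), and at 15.5 CPM, against 10.0 CPM, in neonatal spleen (1.55-fold, [1.09 to 2.14]). It was low in the resting-like cluster led by Dapl1 in neonatal liver, at 4.18 CPM, against 14.0 CPM in the other cells (3.34-fold lower, [1.68 to 7.79]). In 7-week liver the resting-like Ly6c1 cluster was low, at 3.75 CPM, against 12.7 CPM in the other cells (3.39-fold lower, [1.55 to 8.75]). No interval of its age ratio excluded 1 in any of the 6 liver or 10 spleen clusters.

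Between tissues, Plagl1 was the 1 gene of 4 with a 2-fold difference in neonatal cells. The neonatal liver library had 4.08 CPM, against 12.3 CPM for neonatal spleen, and Plagl1 was 3.01-fold lower in liver [2.44 to 3.73], where 1.55% of 9153 features were at least 2-fold lower. None of the 4 was at least 2-fold higher in neonatal liver, against 3.71% of the features. The Plagl1 ratio ranked 42 of 9153 from the lowest. Within the 11 clusters with at least 50 cells in both libraries it was higher in liver in 4, and the interval lay below 1 in 2 and above 1 in none. With the liver clusters weighted to the spleen's shares the ratio was 0.483. At 7 weeks it stood at 5.58 CPM in liver and 6.67 CPM in spleen (ratio 0.836, [0.568 to 1.21]).

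Cdkn1c was higher in the liver at both ages, below 2-fold. The liver over spleen ratio was 1.61 [1.41 to 1.83] in neonatal cells and 1.91 [1.36 to 2.68] at 7 weeks. At 7 weeks 1.99% of 9092 features were at least 2-fold higher in liver, 1.1% at least 2-fold lower, and none of the 3 of these genes that reached 5 CPM was among them. Without cells of cycling clusters the 7-week ratio of Cdkn1c was 2.04, and with the liver clusters weighted to the spleen's shares it was 1.30. In the Gpr15 cluster alone it stood at 16.5 CPM in 7-week liver and 11.6 CPM in 7-week spleen (1.42-fold, [0.825 to 2.51]), and its neonatal levels there were 53.1 CPM for liver and 31.3 CPM for spleen (1.70-fold, [1.35 to 2.13]). Igf2bp3 was slightly lower in neonatal liver than in neonatal spleen, with a ratio of 0.781 [0.727 to 0.839], and weighted to the spleen's cluster shares the ratio was 0.985. Arid3a had a ratio of 1.26 [1.09 to 1.47] in neonatal cells and 0.980 when weighted.

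Whether the genes occurred in the same cells was read in the neonatal libraries, thinned to 1000 UMIs, for the 6 pairs of the 4 genes. In neonatal spleen an Igf2bp3 UMI was found in 12 of 66 cells with a Plagl1 UMI (18.2%, [9.76 to 29.6]) and in 5.95% of the cells without one [5.33 to 6.61]. In neonatal liver 0 of 22 cells with a Plagl1 UMI had one, which allows up to 13.6%. In neonatal liver an Igf2bp3 UMI was found in 7.32% of 82 cells with a Cdkn1c UMI [2.73 to 15.3] and 4.53% of the others. Apart from Plagl1 with Igf2bp3 in neonatal spleen, the intervals of cells with and without the first gene overlapped in each pair and library. Cells of 1 library are not replicates, and these shares describe those libraries.

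Of 13 let-7 processing and decay genes with 5 CPM or more in the higher of both libraries, such as Drosha and Dicer1, which cut microRNA precursors, and Tut4 and Tut7, which add uridines to let-7 precursors, none differed 2-fold with age in either tissue. Of all features tested, 6.84% were at least 2-fold lower and 6.1% at least 2-fold higher at 7 weeks in liver, and 4.01% and 3.74% in spleen, shares beside which counts over lists this short are descriptions and no more. Their median log2 of neonatal over 7-week was -0.28 in liver and -0.17 in spleen, against 0.02 in liver and 0.01 in spleen for all features tested. The largest of these liver differences was that of Drosha, with 11.0 CPM in 7-week liver and 7.23 CPM in neonatal liver.

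Among 18 tested genes of a list of other let-7 targets, 2 were at least 2-fold lower and 2 at least 2-fold higher in 7-week than in neonatal liver, with a median log2 of neonatal over 7-week of 0.02, against 6.84% lower and 6.1% higher among all features. Rrm2, a subunit of the enzyme that makes deoxynucleotides, stood at 26.0 CPM in 7-week liver, against 142 CPM in neonatal liver. Il10, a suppressive cytokine, stood at 4.86 CPM in 7-week liver, against 41.8 CPM in neonatal liver. Dusp1, a phosphatase of stress kinases, stood at 399.8 CPM in 7-week liver, against 143 CPM in neonatal liver, and Igf1r, the receptor of IGF1, at 21.0 CPM, against 9.20 CPM. In spleen 2 were lower at 7 weeks (Rrm2 and Il10) and 1 higher (Dusp1, 199.8 CPM in 7-week spleen, against 69.5 CPM in neonatal spleen), with a median of 0.07, against 4.01% lower and 3.74% higher among all features.

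Of the IGF axis, the growth factor Igf2, whose RNA gives the Igf2bp genes their name, had 1 UMI in 7-week liver, 2 in neonatal liver and 4 in each spleen library. H19, the imprinted RNA beside Igf2, had 19 UMIs in neonatal liver and 0 in the other libraries. Of the 6 tested genes of this list, 2 were lower at 7 weeks in both tissues, Igf2bp3 itself and Igfbp7, a secreted binding protein, which stood at 4.43 CPM in 7-week liver, against 23.5 CPM in neonatal liver. In spleen Igfbp7 stood at 2.56 CPM at 7 weeks, against 7.52 CPM in neonatal cells. In liver 1 was higher at 7 weeks, Igf1r. The shares of all features that were lower at 7 weeks were 6.84% in liver and 4.01% in spleen, and 6.1% were higher at 7 weeks in liver. The median log2 of neonatal over 7-week was -0.72 in liver and 0.27 in spleen, against 0.02 and 0.01 for all features tested.

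Imprinted genes differed in both directions. Of 17 tested in liver, 3 were at least 2-fold lower (Cdkn1c, Mcts2 and Cd81) and 2 at least 2-fold higher (Peg13 and Zrsr1) at 7 weeks, with a median log2 of neonatal over 7-week of -0.45, against 6.84% lower and 6.1% higher among all features. Of 18 tested in spleen, 3 were lower (Cdkn1c, Mcts2 and Airn) and 1 higher (Peg13) at 7 weeks, with a median of -0.22, against 4.01% lower and 3.74% higher among all features. Mcts2, a retrogene copy of Mcts1 whose counts are uncertain for that reason, stood at 0.429 CPM in 7-week liver, against 8.58 CPM in neonatal liver, and at 0.320 CPM in 7-week spleen, against 7.65 CPM in neonatal spleen. Peg13, a non-coding RNA, stood at 11.3 CPM in 7-week liver, against 1.94 CPM in neonatal liver, and at 9.23 CPM in 7-week spleen, against 1.96 CPM in neonatal spleen.

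Among CDK inhibitors, 2 of 6 tested in liver and 2 of 5 in spleen were at least 2-fold lower at 7 weeks, in both cases Cdkn1c and Cdkn3, against 6.84% of all features in liver and 4.01% in spleen. Cdkn3, a phosphatase that acts on CDKs and is itself raised in G2/M, stood at 8.15 CPM in 7-week liver, against 39.5 CPM in neonatal liver. Cdkn1b, the p27 relative of Cdkn1c, went the other way, with 211 CPM in 7-week liver, against 93.2 CPM in neonatal liver. In spleen it stood at 138 CPM at 7 weeks, against 85.8 CPM in neonatal cells. Hmga1, the relative of Hmga2 that these cells do express, stood at 68.1 CPM in 7-week liver and 104 CPM in neonatal liver, and at 82.1 CPM in 7-week spleen and 134 CPM in neonatal spleen, below 2-fold. Of the 20 genes of a fetal haematopoietic list, 6 were tested, and the 2 at least 2-fold lower at 7 weeks in each tissue were again Igf2bp3 and Cdkn1c, which are on it. Among family relatives of the 8 genes, 0 of 5 tested in liver and 0 of 4 in spleen were lower at 7 weeks, and 1 in liver, Cdkn1b, was higher, where 6.84% and 4.01% of all features were lower and 6.1% higher in liver.

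**Figure D4:**
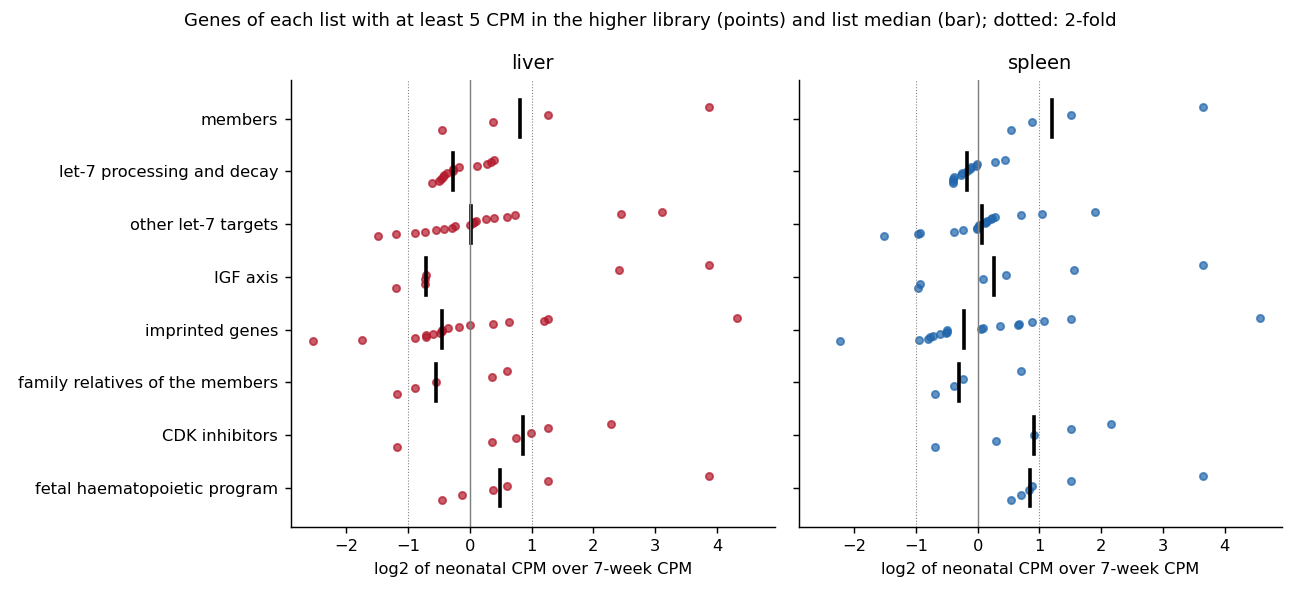
Log2 of neonatal over 7-week CPM (x axis) for each gene with 5 CPM or more in the higher of both libraries, by list (points) and the median of the list (bar), in liver (left) and spleen (right). Dotted lines mark 2-fold. Igf2bp3 lies at 3.87 in liver and 3.65 in spleen, while the genes of let-7 processing and decay all lie within 2-fold.

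The genes whose level was most like each of the 4 were sought over the 45 library by cluster profiles with at least 50 cells, among 10875 genes. For Igf2bp3 these were Dsg2, a cell adhesion protein (Pearson r = 0.846), Gtf2a2, a subunit of a general transcription factor (0.831), and Cirbp, a cold-inducible RNA-binding protein (0.823). Dsg2 stood at 0.143 CPM in 7-week liver (1 UMI), 9.58 CPM in neonatal liver, 0.160 CPM in 7-week spleen and 5.02 CPM in neonatal spleen. For Cdkn1c they were Cdkn2d, another CDK inhibitor (0.710), Rp9 (0.708) and Acat1 (0.666). For Plagl1 they were Car11 (0.698), Ryr2, a calcium channel (0.671), and Smyd2, a lysine methyltransferase (0.670), and for Arid3a Ebi3, a cytokine subunit (0.758), Tmbim1 (0.748) and Tspyl4 (0.744). The 45 profiles hold both ages, so the age difference itself enters these values. Over the 25 neonatal profiles alone, a choice made after the values were seen, the genes most like Igf2bp3 were Btla (0.826), Il2ra (0.818) and Smg6 (0.816), none of which is among the 3 above. In that set they were Ccdc92 for Arid3a (0.908) and Ptpra for Cdkn1c (0.783), while Ryr2 was again among the 3 genes most like Plagl1 (0.741). Profiles of 1 library share its depth and handling, so these values describe likeness and no more.

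RNA of other cells was measured beside these results. The 9 erythroid markers summed to 14.6 CPM in 7-week liver, 18.3 CPM in neonatal liver, 27.7 CPM in 7-week spleen and 319 CPM in neonatal spleen. Among cells with no haemoglobin UMI, Igf2bp3 stood at 3.15 CPM in 7-week liver, 46.3 CPM in neonatal liver, 4.64 CPM in 7-week spleen and 60.2 CPM in neonatal spleen, close to the values over all cells. Of the 8 blood progenitor markers, 3 in 7-week liver, 5 in neonatal liver, 5 in 7-week spleen and 6 in neonatal spleen had a UMI. They summed to 2823 CPM in 7-week liver, 2242 CPM in neonatal liver, 2702 CPM in 7-week spleen and 1903 CPM in neonatal spleen. Of these sums, Ly6e and Cd48, which T cells also express, gave all but at most 1.14 CPM per gene. Cd34 and Mecom were at 0 in all 4 libraries. Of the 5 thymocyte markers, 2 or 3 had a UMI in a library, they summed to at most 2.24 CPM, and Rag1 was at 0 in all. The 5 hepatocyte markers summed to 13.9 CPM in 7-week liver, 7.54 CPM in neonatal liver, 2.08 CPM in 7-week spleen and 3.29 CPM in neonatal spleen. The 10 G2/M markers summed to 231 CPM in 7-week liver, against 1138 CPM in neonatal liver, and to 129 CPM in 7-week spleen, against 492 CPM in neonatal spleen, and with cells of cycling clusters left out the neonatal over 7-week ratio of Igf2bp3 was 14.8 in liver and 13 in spleen.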

How the data were processed

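Whole-number UMI counts per gene and cell barcode were deposited for 4 libraries, with Cell Ranger 4.0.0 named per the file headers. Seurat 4.0.2 and the mm10 build are named per the submitters' processing notes. The annotation and use of strand are not given in the sources used here, and gene positions and UTRs were taken from a GRCm38 annotation that matched 32158 of 32285 features (99.6%).

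Barcodes were kept as cells from 500 genes upward and up to 10% of mitochondrial UMIs (scanpy 1.11.5, Python 3.11.15). The automatic threshold of Scrublet marked at most 2 cells in a library and so had not worked. The highest-scoring cells, at 0.8% per 1000 cells, were removed instead. Counts were scaled to 10000 per cell and clustered without the 8 genes on 2000 variable genes and 30 components, with 15 neighbours and Leiden resolution 1 (leidenalg 0.10.2), with no batch integration. Of 19 clusters, 4 with markers of other lineages among their leading genes were removed. Among them was the Tcrg-V4 Xcl1 cluster, which carries the RNA of T cells. A name needed 3 raised markers, a limit set after the data were seen, and a marker of that set among the leading genes. Other clusters are called by their leading genes, so names are rebuilt and not the authors'. Cycling clusters are those with at least 5 raised G2/M markers.

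UMIs were summed per library and divided by the total over the main cells (CPM). Levels have exact Poisson intervals, ratios exact conditional binomial intervals and shares exact Clopper-Pearson intervals, all at 95% and for counting error only (scipy 1.17.1). A feature was tested from 5 CPM upward in the higher of both libraries and called at 2-fold. With 1 library per group there is no p-value. A count of 0 was given a limit of 3 UMIs. The script for ratios was tested on simulated counts. Named genes are the 8 genes, from each list up to 4 genes per comparison with the largest ratios, and the 3 genes most like each gene with at least 200 UMIs, by log2(CPM + 1); Hmga1, H19, Igf2, Lin28a, Malsu1 and others were named beyond that as relatives or overlapping genes, in part after their values were seen. The 8 genes and the lists were chosen with earlier results of these data known. Alternatives were other cell filters, thinning to 1000 UMIs, TMM scaling (edgeR 4.0.16, R 4.3.3), other totals and other limits on low values, and, added after the data were seen, haemoglobin-free cells and cluster weighting.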

Additional observations from a re-analysis of the deposited data

Results flagged for a closer look

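The age ratio of Plagl1 was below 1 in liver and above 1 in spleen, but a movement in liver is not shown. Its neonatal over 7-week ratio was 0.732 [0.506 to 1.08] in liver and 1.84 [1.5 to 2.27] in spleen, and the difference between the tissues was not tested, with 1 library per group and a liver interval that holds 1.

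RNA of the 8 genes was also counted in the cells of the removed clusters, which enter no comparison. Igf2bp3 had 17 UMIs there in neonatal liver and 46 in neonatal spleen, against 0 in both 7-week libraries. Arid3a had 15 in neonatal liver and 6 in neonatal spleen, Plagl1 had 8 in neonatal spleen, and Cdkn1c had 14 in neonatal spleen, these 14 in the macrophage-like cells. Foxp3 was at 415 CPM in those macrophage-like cells of neonatal spleen, and the part of Treg RNA in these counts was not tested.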

How the results depend on the processing

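No paired analysis was possible because each group has 1 library. Of 168 recomputed ratios of the genes, 154 moved by less than their counting interval, 14 moved by more and 0 reversed a called direction. Igf2bp3 and Cdkn1c, the 2 genes at least 2-fold lower in 7-week than in neonatal liver, became 1 without cycling clusters and 1 with at least 25 CPM required. The 2 in spleen became 1 at 25 CPM. The 1 gene lower in neonatal liver than in neonatal spleen became 0 at 25 CPM. Between 7-week liver and 7-week spleen 0 genes became 1, Cdkn1c, without cycling clusters, with cells holding a Foxp3 UMI only, and with thinned cells (2.34). Without thinning, the Igf2bp3 share was 20.1% in neonatal liver (4.58% thinned) and 24.2% in neonatal spleen (6.09%), and that of Cdkn1c 5.63% (1.69%) and 4.11% (0.997%); thinned cells hold fewer UMIs. Without the 10 highest cells, Igf2bp3 was 31.2-fold lower in 7-week liver, where this removes 10 of 20 positive cells. The liver ratio of Plagl1 was then 1.12 and its 7-week liver over spleen ratio 0.537. For Plagl1 this removes 48.7% of the UMIs of 7-week liver, 21.2% of neonatal liver and 20% of 7-week spleen. The direction of both shifts was fixed by these unequal shares. Without the 10 highest cells the Cdkn1c excess of the Gpr15 cluster in neonatal liver was 2.80 (3.39 with all cells). At Leiden resolution 0.5 Ccl5 and Gzmb led a larger cluster together with Ccl4 and Ccl3, with 2261 neonatal liver cells. The ratio of Plagl1 in it to the other cells was 0.371. It was 0.149 for the Ccl5 Gzmb cluster of 1683 cells at resolution 1, so these values cover different cells. Depth limits Igf2bp1, Igf2bp2, Lin28b and Hmga2, with at most 14 UMIs in a library.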
